A study of Mus musculus musculus x M. m. domesticus and Mus musculus musculus x Mus musculus castaneus and Mus musculus domesticus with 42 samples.

Results

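The BCL2 family decides whether a cell's mitochondria are opened during apoptosis, and 10 of its genes were followed across 3 mouse tissues and 7 genotypes. The set comprised the anti-apoptotic genes Bcl2, Bcl2l1 and Mcl1, the pore-forming effectors Bax and Bak1, and the BH3-only genes Pmaip1, Bbc3, Bid, Bik and Bmf. Every probe set whose gene symbol in the platform annotation was a member was taken, which gave 28 of 45037 probe sets and covered 9 of the 10 genes. Mcl1 had 6 probe sets, Bcl2 had 5, Bcl2l1 had 4, Bid, Bik and Bmf had 3 each, Bak1 had 2, and Pmaip1 and Bbc3 had 1 each. No probe set carried the symbol Bax, which is not analysed here. The set was chosen by the measured testis signals of the reciprocal musculus-castaneus F1, so values of that contrast, and of the same F1 against their parents, are given as a description, with no test.

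Transcript signals came from 42 Affymetrix arrays of brain, liver and testis of 14 males, with 2 males per genotype and 1 array for each tissue of a male. The genotypes were the house mouse subspecies domesticus, musculus and castaneus of Mus musculus, kept as inbred lines of wild origin, and reciprocal F1 males from crosses of musculus with either of the others. An F1 is named with its mother first. The domesticus males were 45 days old, the musculus males and the castaneus males 47 days, the domesticus x musculus F1 50 days, both F1 with a musculus mother 53 days and the castaneus x musculus F1 54 days. Age and genotype therefore cannot be told apart, except between musculus and castaneus and between both F1 with a musculus mother, which shared an age. The labels name the replicates as separate males, and 2 arrays per group limit the precision of every value.

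The balance between family members sets the threshold for apoptosis. Anti-apoptotic members bind and restrain BAX and BAK, BH3-only proteins neutralise the anti-apoptotic members or activate BAX and BAK directly, and the opened mitochondria release cytochrome c to the caspases. In the testis, apoptosis removes many germ cells during normal spermatogenesis, and both pro- and anti-apoptotic members are known to be needed for it.

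Summed markers of brain, liver and spermatocytes were highest in the tissue they define, but some lists were not low elsewhere. Summed signals of 5 brain markers lay between 39618 and 53857 in brain, against at most 3039 in liver and 1007 in testis. Summed signals of 9 spermatocyte markers lay between 59653 and 77484 in testis. Liver marker sums were 101890 to 153066 in liver but reached 17261 in brain, where Ttr alone read 12189 to 16919. Sertoli cell marker sums overlapped between testis, at 11499 to 21589, and liver, at 10964 to 20813. Spermatogonial marker sums overlapped between testis, at 6148 to 11975, and brain, at 8907 to 11972. Signals of replicate arrays correlated at r = 0.958 to 0.981 across probe sets, a description over one array pair per group, and no pair of arrays held identical values. The arrays measure bulk tissue, in which fewer cells of a type and less RNA per cell cannot be told apart. Where a subspecies carries a sequence variant under a probe, its signal can be lower at an equal transcript level, and the part of such variants in the values was not tested.

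Pmaip1, which encodes the BH3-only protein NOXA, a p53 target that neutralises MCL1, stood highest in the testis of the musculus x castaneus F1. Its single probe set, 1418203_at, read 737 and 800 signal units in the 2 males of that F1. It read 92 and 46 in the castaneus x musculus F1, 102 and 55 in musculus, and 19 and 6 in castaneus. Both males with a musculus mother thus lay far above the other castaneus-cross males and above all other testis arrays, of which the highest, in the musculus x domesticus F1, read 200. On the log2(signal + 31) scale, where 31 is the 20th percentile of all signals, the F1 with a musculus mother was higher than its reciprocal by 3.04 ± 0.329 (SE, limma). Other settings gave 2.37 to 3.38. The mean of both F1 lay above the mean of the parents by 2.04 ± 0.233. That value rests on the F1 with a musculus mother, since the other F1 overlapped musculus. Without the musculus x castaneus F1, the mean signal of the probe set in testis would have been 68, below the filter on dim probe sets of 84.3, so it entered the testis fit through these 2 arrays.

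**Figure D1:**
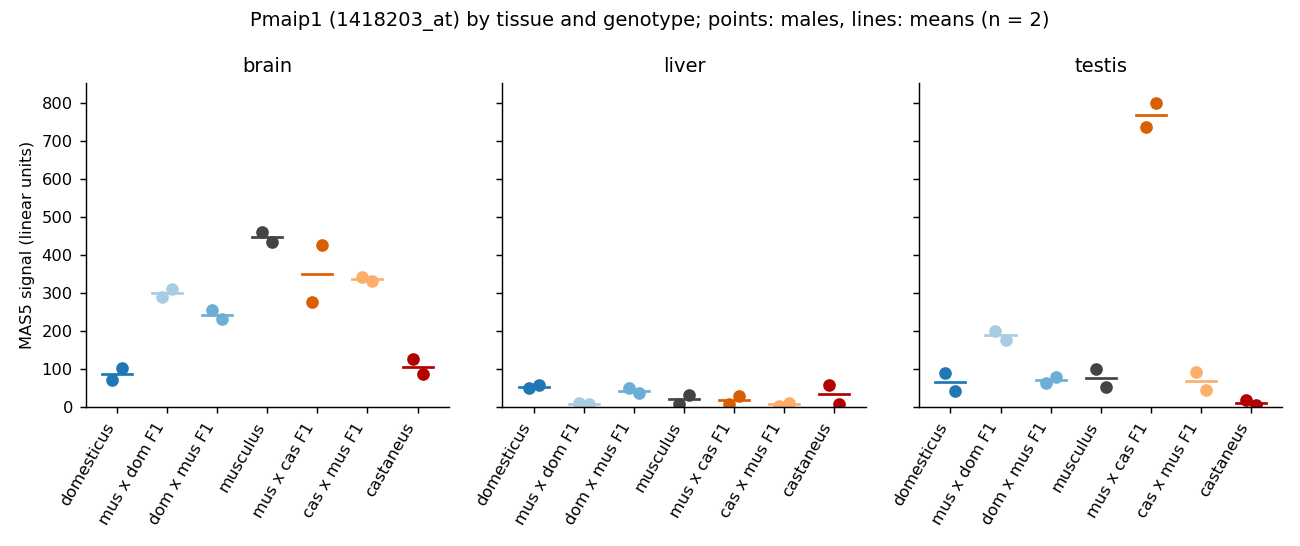
Pmaip1 signal (MAS5, linear units) of each male by genotype in brain, liver and testis, with a line at the mean of the 2 males. In testis the musculus x castaneus F1 stands at 737 and 800, while in brain musculus stands highest at 461 and 435, and every liver value is at or below 60.

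Among the anti-apoptotic genes, Mcl1, which encodes a short-lived guardian of the outer mitochondrial membrane, had testis signals in the musculus x castaneus F1 outside those of all other genotypes, but its probe sets differed in direction. For 1416881_at the F1 with a musculus mother read 1644 and 1424, against 2705 and 2270 in its reciprocal and 2044 to 2858 over the 12 other testis arrays. For 1416880_at it read 1553 and 1351, against 950 and 1181 in its reciprocal and 940 to 1181 over the others. In each of the 6 probe sets both of its arrays lay outside the range of the other 12, below it for 1416881_at and above it for the remaining 5. Such a position was common, since 32.9% of all probe sets fitted in testis had it, 22.2% above and 10.7% below, and nothing is read from the count. The reciprocal difference was -0.68 ± 0.143 (log2, SE) for 1416881_at. It was 0.64 ± 0.22 for 1456381_x_at, 0.60 ± 0.178 for 1456243_x_at, 0.60 ± 0.181 for 1437527_x_at, 0.44 ± 0.15 for 1416880_at and 0.21 ± 0.14 for 1448503_at. The suffix _x_at marks probe sets that may also bind other transcripts, and the part of such binding in these values was not tested. The gene as a whole therefore has no single direction here.

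**Figure D2:**
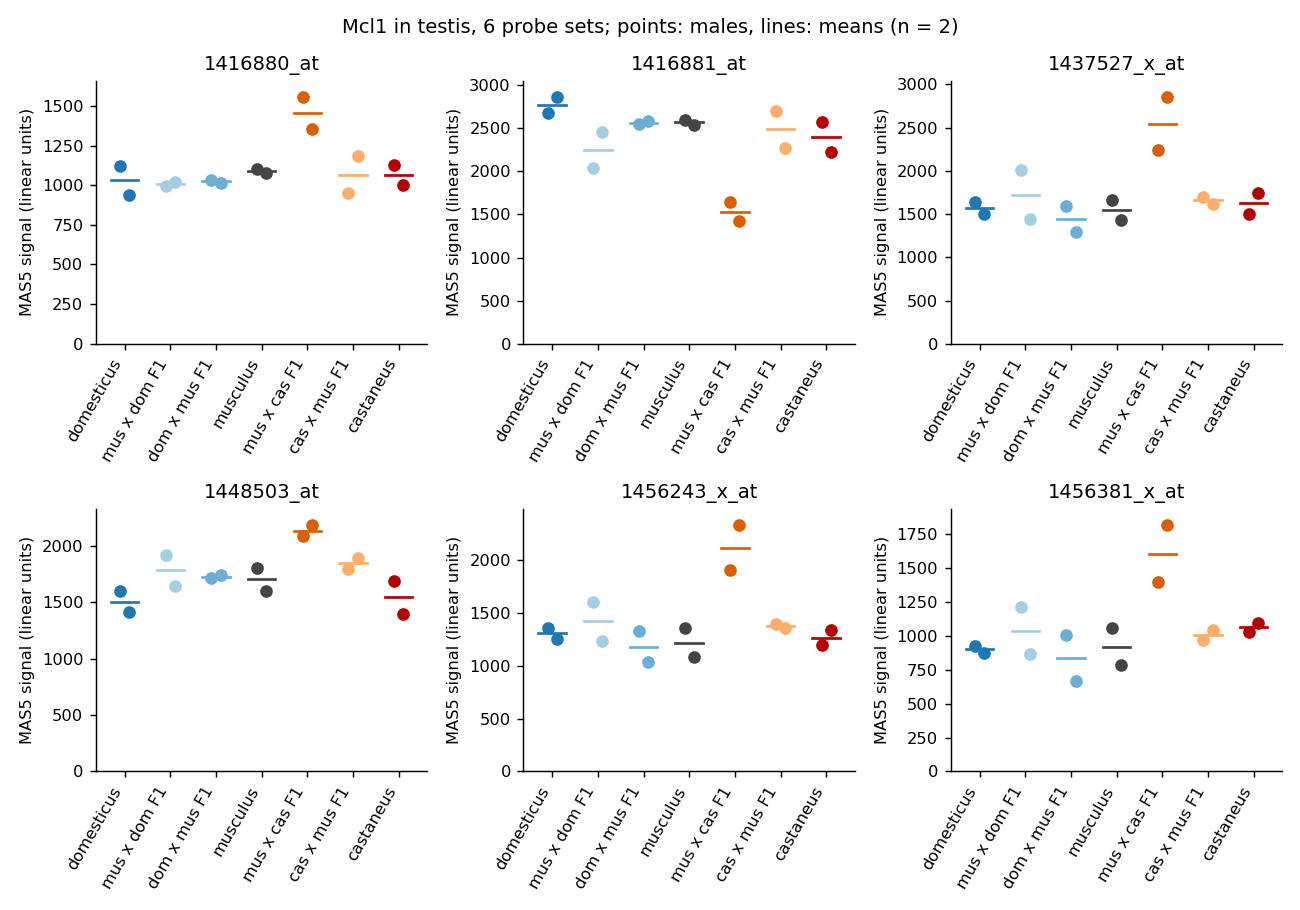
Mcl1 signal (MAS5, linear units) in testis for 6 probe sets, each male a point and each line the mean of 2 males, with a separate vertical scale per panel. The musculus x castaneus F1 lies below the other genotypes for 1416881_at, at 1644 and 1424, and above them in the other panels.

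Bcl2l1 and Bcl2, the other anti-apoptotic genes, showed smaller or less certain differences between these F1. For Bcl2l1, which encodes BCL-XL, 1420888_at read 2668 and 2262 in the F1 with a musculus mother and 1702 and 2114 in its reciprocal, a difference of 0.37 ± 0.192. Its probe set 1426191_a_at read 80 and 17 against 145 and 92, a difference of -1.01 ± 0.567, which ranged from -1.62 to -0.41 when single arrays were left out. The third, 1420887_a_at, differed by -0.10 ± 0.208. For Bcl2, 1457687_at read 189 and 167 against 97 and 141, and 1422938_at differed by 0.04 ± 0.341. Bak1, whose product already sits on the outer mitochondrial membrane in healthy cells, read 183 and 94 in the F1 with a musculus mother, which enclosed the 176 and 168 of its reciprocal.

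Of the remaining BH3-only genes, only Bid had a fitted probe set whose testis signal in the musculus x castaneus F1 lay above all other genotypes. Bid links death receptors to mitochondria once a caspase cleaves its product. Its probe set 1417045_at read 337 and 411 in that F1, 234 and 213 in its reciprocal, 197 and 159 in musculus and 241 and 176 in castaneus, and 106 to 177 in the domesticus cross and its domesticus parent. The reciprocal difference was 0.67 ± 0.215, and 0.35 after quantile normalization. A dimmer Bid probe set, 1447873_x_at, read 187 and 142 against 69 and 90, and was too dim in testis to be fitted. Bmf, which encodes a BH3-only protein held at the cytoskeleton until stress releases it, read 223 and 184 for 1454880_s_at in the F1 with a musculus mother and 132 and 148 in its reciprocal. Those values overlapped the 208 and 197 of castaneus. Bbc3, which encodes PUMA, read 138 and 34 against 108 and 122, so the groups overlapped. Bik, a BH3-only gene whose product acts largely at the endoplasmic reticulum, differed by 0.39 ± 0.224 and 0.33 ± 0.223 for 1420362_a_at and 1420363_at and by -0.26 ± 0.322 for 1449836_x_at.

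Counted over the 19 member probe sets bright enough for the testis fit, 13 were higher and 6 lower in the F1 with a musculus mother than in its reciprocal. The median difference was 0.37, against 0.24 over all 27022 probe sets fitted. For 14 of the 19, 12 higher and 2 lower, the males of the reciprocal F1 did not overlap, which held for 63.4% of all probe sets fitted in this contrast, 43% higher and 20.5% lower. Only Pmaip1 and 1426191_a_at of Bcl2l1 passed 2-fold, 1 in each direction, where 7.8% of all probe sets did, 4.14% higher and 3.66% lower. Since the choice of members used this contrast, nothing is read from these counts. Against the midparent, 2 of the 19 passed 2-fold, Pmaip1 above it and 1426191_a_at of Bcl2l1 below it, against 0.714% of all probe sets (0.418% above, 0.296% below). That comparison shares the F1 values behind the choice of members, so nothing is read from its count either.

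**Figure D3:**
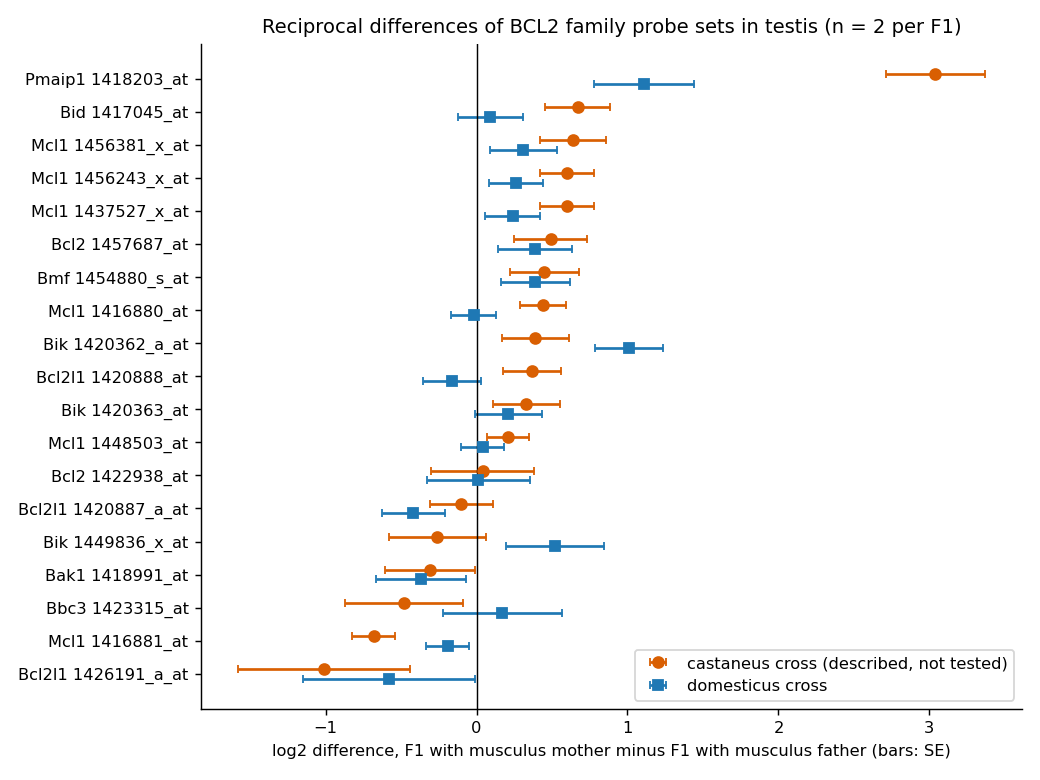
Reciprocal log2 difference in testis (F1 with a musculus mother minus F1 with a musculus father, with SE bars) for the 19 member probe sets fitted, in the castaneus cross (circles) and the domesticus cross (squares). Pmaip1 lies farthest from 0 in both, at 3.04 in the castaneus cross and 1.11 in the domesticus cross.

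Marker sums of several testis cell types differed in the same contrast. Summed signals of 6 round spermatid markers lay between 22799 and 24808 in the musculus x castaneus F1 and between 42419 and 48308 in its reciprocal. Sums of 8 Sertoli cell markers were 20405 to 21589 against 13228 to 13331, of the 4 Leydig cell markers with a probe set, out of 6, 16314 to 17853 against 6710 to 8657, and of 7 spermatogonial markers 11737 to 11975 against 7491 to 7834. Sums of 5 macrophage markers were 1975 to 2187 against 1212 to 1345, and of the 2 red blood cell markers with a probe set, out of 3, 537 to 541 against 420 to 496. Sums of 9 spermatocyte markers were 64179 to 67375 against 67069 to 68574, and of 6 elongating spermatid markers 72200 to 81969 against 83732 to 90258. In each of these lists but the spermatocytes the 2 F1 did not overlap, and no marker with a probe set was listed at 0 in any array. Of all single probe sets fitted in testis, 63.4% did not overlap in this contrast, so nothing is read from the number of lists. The median log2 difference was 0.39 for the macrophage markers and 0.33 for the 1 red blood cell marker fitted, near the 0.24 over all probe sets. A sum rests on its brightest genes, such as Clu among the Sertoli cell markers, at 7060 to 11018 over the testis arrays. Past 2-fold higher were 3 of 7 Sertoli, 2 of 4 Leydig, 1 of 7 spermatogonial and 1 of 5 macrophage markers fitted. Past 2-fold lower were 2 of 6 round spermatid markers, and the remaining lists had 0. Of all probe sets, 4.14% were past 2-fold higher and 3.66% lower. The part of the marker shifts in the Pmaip1, Mcl1 and Bid values was not tested.

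In the domesticus cross, no member passed the test in testis, neither between the reciprocal F1 nor against the midparent, where 0.204% and 0.414%, in that order, of all 27022 probe sets did. Pmaip1 read 200 and 178 in the musculus x domesticus F1 and 63 and 79 in its reciprocal. The F1 did not overlap, and domesticus, at 90 and 42, and musculus, at 102 and 55, lay with the reciprocal. The difference of 1.11 ± 0.329 had a limma adjusted p of 0.513. Round spermatid marker sums were 41401 to 48526 and 41420 to 46936 in these F1, which overlapped, as did the other germ cell, Sertoli cell and macrophage sums. Leydig cell sums, 5727 to 6680 against 7475 to 8627, and red blood cell sums, 617 to 676 against 406 to 441, did not overlap. The part of such shifts in the Pmaip1 values was not tested. Bik read 291 and 377 for 1420362_a_at in the F1 with a musculus mother and 164 and 135 in its reciprocal, a difference of 1.01 ± 0.224 with an adjusted p of 0.161. The other Bik probe sets differed by 0.21 and 0.52. For Bcl2l1, 1420887_a_at read 277, 247, 310 and 416 in the 4 F1 males, below all 4 parents at 439 to 689. The shift from the midparent was -0.68 ± 0.147, with an adjusted p of 0.0911, and passed at -0.72 with an adjusted p of 0.0422 after quantile normalization.

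Between the parents, Pmaip1 was lower in brain of both domesticus and castaneus than in musculus. Its brain signals were 461 and 435 in musculus, 73 and 104 in domesticus and 127 and 88 in castaneus. The parents did not overlap, and the log2 differences from musculus were -2.01 ± 0.227 in domesticus (limma adjusted p = 0.000251) and -1.80 ± 0.227 in castaneus (adjusted p = 0.000606). It was the single member probe set of 19 to pass in either brain comparison, where 5.75% of all probe sets passed for domesticus, 2.48% as lower, and 6.07% for castaneus, 2.95% as lower. All F1 lay above the lower parent, at 290 and 310 in musculus x domesticus, 255 and 233 in domesticus x musculus, 276 and 426 in musculus x castaneus and 342 and 333 in castaneus x musculus. In the order of brain means, musculus was followed by both castaneus F1, then the musculus x domesticus F1, the domesticus x musculus F1, castaneus and domesticus. The values of the musculus x castaneus F1 enclosed those of the castaneus x musculus and the musculus x domesticus F1, and castaneus overlapped domesticus.

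In testis, the Pmaip1 parents stood in another relation. Castaneus, at 19 and 6, lay below musculus, at 102 and 55, by -1.31 ± 0.329 (adjusted p = 0.0166), while domesticus, at 90 and 42, overlapped musculus. The probe set was in this fit only through the musculus x castaneus F1, as given above, so the call is not independent of the choice of members. With no filter on dim probe sets the adjusted p was 0.0337. The domesticus difference of -0.19 had a 95% interval from -0.90 to 0.52. Both castaneus values lie below the 31 units added before taking logs, so the size of that difference depends on the amount added and lay between -0.66 and -1.72 over the settings tried. The call was lost without musculus male 1, at -1.0 and an adjusted p of 0.156, and without castaneus male 2, at -1.10 and an adjusted p of 0.132. In liver Pmaip1 read between 5 and 60 and was too dim to be fitted. With no filter on dim probe sets, its difference from musculus passed the limma F test for tissue dependence in both domesticus (adjusted p = 0.000235) and castaneus (adjusted p = 0.00493). That test includes liver, where 8 of 14 arrays lay below the 31 units added. A difference there comes out too small, so the test cannot tell tissue dependence from a dim liver signal. Brain and testis gave -2.01 and -0.19 in domesticus and -1.8 and -1.31 in castaneus.

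Bik was higher in testis of both other subspecies than in musculus. Its probe set 1420362_a_at read 78 and 50 in musculus, 228 and 285 in domesticus and 484 and 511 in castaneus. The groups did not overlap, castaneus standing highest, and the differences from musculus were 1.61 ± 0.224 in domesticus (adjusted p = 0.000275) and 2.49 ± 0.224 in castaneus (adjusted p = 6.46e-06). For 1420363_at, musculus read 77 and 98, domesticus 213 and 249 and castaneus 234 and 303, with differences of 1.15 ± 0.223 (adjusted p = 0.0034) and 1.33 ± 0.223 (adjusted p = 0.00113). The third, 1449836_x_at, rose in castaneus by 1.40 ± 0.322 (adjusted p = 0.0103), a call lost without musculus male 1 (1.18, adjusted p = 0.096) or castaneus male 2 (1.06, adjusted p = 0.122), and gave 0.62 with an adjusted p of 0.262 in domesticus. These were the members that passed in testis beside Pmaip1: 2 of 19 probe sets higher in domesticus, where 12.8% of all probe sets passed and 6.95% were higher, and 3 higher and 1 lower (Pmaip1) in castaneus, where 13.5% passed, 7.48% as higher and 6% as lower. The Pmaip1 call is not independent of the choice of members, as given above, so nothing is read from the 1 lower. Leydig cell marker sums were 5284 to 5916 in musculus, 8013 to 8968 in domesticus and 9132 to 12989 in castaneus, and their part in the Bik values was not tested. The 4 Leydig genes fitted did not move together: in domesticus Cyp17a1 was higher by 1.35 (adjusted p = 0.00019) and Hsd3b1 lower by -1.03 (adjusted p = 0.000836), and in castaneus only Cyp17a1 passed, at 1.49 (adjusted p = 8.8e-05).

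**Figure D4:**
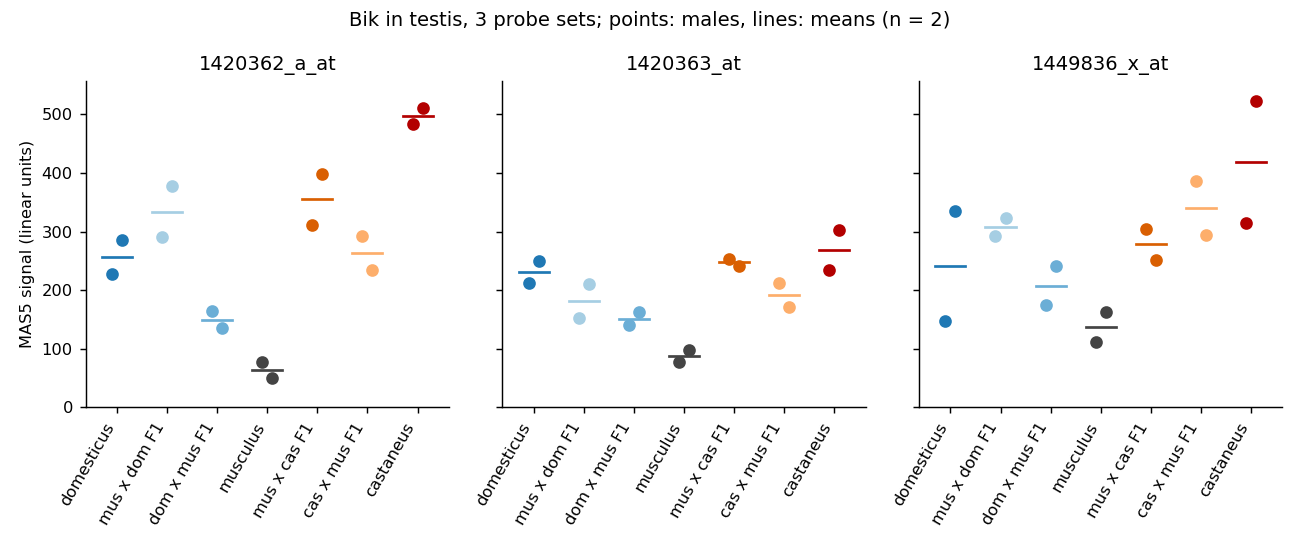
Bik signal (MAS5, linear units) in testis for 3 probe sets, each male a point and each line the mean of 2 males. Musculus is lowest in each panel by its mean, and castaneus is highest, at 484 and 511 for 1420362_a_at.

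The F1 of both crosses had testis Bik signals between or near those of their parents. For 1420362_a_at the castaneus-cross F1 read 312 and 398 with a musculus mother and 292 and 235 with a musculus father, all between musculus and castaneus. In the domesticus cross the musculus x domesticus F1, at 291 and 377, lay above both parents, and its reciprocal, at 164 and 135, lay between them. The mean of both domesticus-cross F1 lay above the midparent by 0.64 ± 0.159, with an adjusted p of 0.186. In brain all 3 Bik probe sets read between 2 and 64 and were not fitted.

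In liver, 1 of 20 member probe sets passed between castaneus and musculus, where 6.55% of all probe sets did and 3.14% were higher, and 0 of 20 between domesticus and musculus, where 6.17% did. In the latter, 6 member probe sets had an unadjusted p under 0.05, as did 18.6% of all probe sets. Bik 1420362_a_at read 104 and 156 in musculus, 429 and 249 in castaneus and 300 and 318 in domesticus. Castaneus was higher by 1.18 ± 0.317 (adjusted p = 0.0443), a call lost without musculus male 1 (adjusted p = 0.285), musculus male 2 (0.0671) or castaneus male 1 (0.274), and the other Bik probe sets gave 0.02 and 0.23. In domesticus the 3 probe sets gave 1.10, 1.21 and 0.83, with adjusted p-values of 0.0629, 0.118 and 0.239.

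The difference between domesticus and musculus depended on tissue for Bid and Bmf, 2 of the 13 member probe sets bright enough in all 3 tissues, where 12.4% of all 20178 such probe sets passed. Bid 1417045_at read 574 and 683 in liver of domesticus against 469 and 361 in musculus, but 124 and 106 in testis against 197 and 159. Domesticus thus lay above musculus in liver and below it in testis, with no overlap in either. The differences were 0.57 in liver, -0.30 in brain and -0.51 in testis, and their dependence on tissue had an adjusted p of 0.00424. None of the 3 passed alone, the smallest adjusted p being 0.14 in liver. The dependence on tissue was lost without domesticus male 2 (adjusted p = 0.13) or musculus male 2 (adjusted p = 0.0613). Bmf 1454880_s_at read 584 and 120 in liver of domesticus and 791 and 667 in musculus, while the brain values, 206 and 174 against 191 and 196, and the testis values, 154 and 120 against 128 and 103, overlapped. The differences were -1.31 in liver, -0.03 in brain and 0.20 in testis (adjusted p for tissue dependence 0.0185). The Bmf call was lost without the animal as a block, without domesticus male 2 (adjusted p = 0.369), without musculus male 1 (0.144) and without musculus male 2 (0.0971). The liver difference rests on domesticus male 2: it was -0.30 without that male (adjusted p = 0.707) and -2.33 without domesticus male 1 (adjusted p = 0.000697). The other probe sets of both genes were too dim in at least 1 tissue for this fit and did not pass with no filter. Their adjusted p for tissue dependence was 0.286 and 0.976 for Bid 1447873_x_at and 1448560_at, and 0.418 and 0.94 for Bmf 1422995_at and 1458325_x_at. For castaneus against musculus, 0 of the 13 depended on tissue, where 13.8% of all did.

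**Figure D5:**
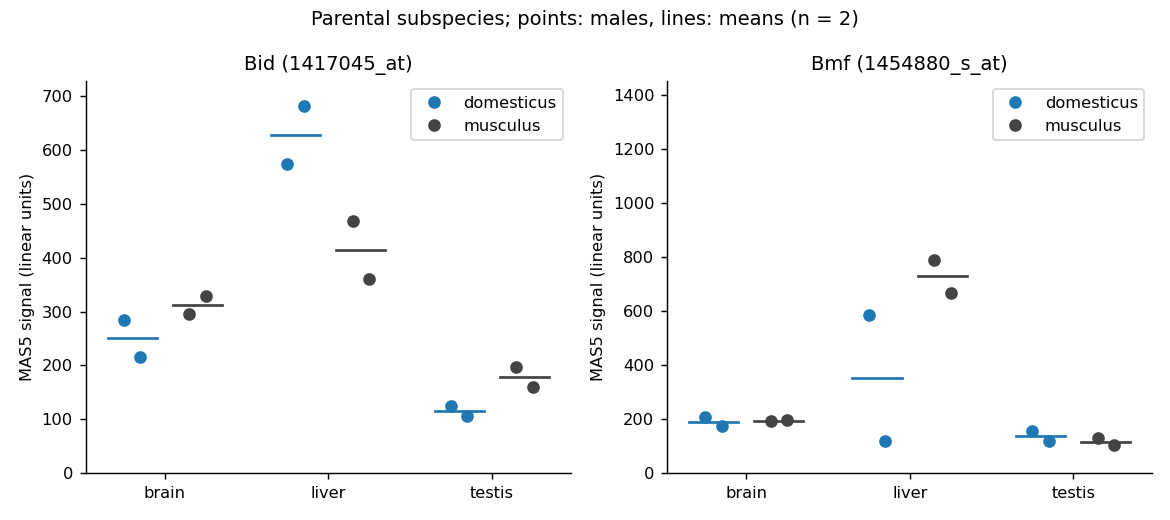
Bid (1417045_at) and Bmf (1454880_s_at) signals (MAS5, linear units) of each domesticus and musculus male in brain, liver and testis, with a line at the mean of 2 males. Bid is higher in domesticus in liver, at 574 and 683, and lower in testis, at 124 and 106, while the domesticus liver values of Bmf are 584 and 120.

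In brain and liver, no member passed between reciprocal F1 or against the midparent in either cross. Between reciprocal F1, 0.0222% of all probe sets passed in brain of the domesticus cross, 0.0888% in its liver, 0.0111% in brain of the castaneus cross and 0.037% in its liver. Against the midparent, 0.137% passed in brain of either cross, 0.178% in liver of the domesticus cross and 0.241% in liver of the castaneus cross. Over all 10 F1 comparisons tested, 0 to 3 of the 19 or 20 member probe sets fitted had an unadjusted p under 0.05, against 3.51% to 9.62% of all probe sets. Bmf 1454880_s_at had the widest reciprocal gap in liver: it read 895 and 953 in the musculus x domesticus F1 and 243 and 311 in its reciprocal, a difference of 1.64 ± 0.459 with an adjusted p of 0.206. Bid 1417045_at read 376 and 339 in liver of the musculus x domesticus F1 against 557 and 555 in its reciprocal, and 348 and 287 in the musculus x castaneus F1 against 495 and 468. In both crosses the F1 with a musculus mother lay lower with no overlap, by -0.60 and -0.56, with adjusted p-values of 0.331 and 1. These members were singled out after their values were seen.

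Across tissues, the members fell into different patterns, over 14 arrays per tissue. Of the 13 member probe sets fitted in every tissue, 11 differed between testis and brain, 11 between testis and liver and 13 between liver and brain, where 85.6%, 85.9% and 84.1% of all probe sets did. Bcl2, the founding member, was brightest in brain: 1457687_at ranged from 366 to 776 there, from 81 to 267 in liver and from 97 to 213 in testis. No brain array overlapped the other tissues, and testis and liver lay below brain by -1.63 (adjusted p = 2.51e-16) and -1.52 (adjusted p = 1.84e-15). Among the BH3-only genes, Bbc3 1423315_at was brightest in liver, at 347 to 1029, against 185 to 450 in brain and 34 to 231 in testis. Liver and testis did not overlap, and testis lay below liver by -2.08 (adjusted p = 1.22e-15). Bik was at 2 to 38 in brain and 50 to 511 in testis for 1420362_a_at, without overlap, but was too dim in brain to enter this fit. Testis also lay below liver for Bid 1417045_at, by -1.08 (adjusted p = 1.02e-15), and for Bmf 1454880_s_at, by -1.88 (adjusted p = 4.05e-16).

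The Mcl1 probe sets did not share a tissue pattern. Testis stood above brain by 2.64 for 1416881_at (1424 to 2858 against 215 to 483, adjusted p = 7.73e-24) and by 0.73 for 1448503_at. For the other 4 probe sets testis stood below brain, by -0.32 to -0.68. Liver stood above brain for 5 of the 6, by 0.16 to 1.77, and below it for 1437527_x_at, by -0.72. For Bcl2l1, 1420888_at was highest in testis, at 1660 to 2977, with 1124 to 2671 in brain and 855 to 1682 in liver, so the tissues overlapped while the means differed (testis minus brain 0.30, adjusted p = 0.00441). Its probe set 1420887_a_at did not pass between testis and brain (-0.16, adjusted p = 0.0803). For Bak1, 1418991_at was higher in liver, at 128 to 333, than in brain, at 73 to 181 (0.78, adjusted p = 8.13e-09).

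Of the 28 probe sets, 19 were bright enough to be fitted in brain, 20 in liver and 19 in testis. Probe sets 1425716_s_at of Bak1, 1440770_at of Bcl2, 1426050_at of Bcl2l1, 1448560_at of Bid and 1458325_x_at of Bmf were fitted in no tissue. Bak1 1425716_s_at ranged from 6 to 120 over the 3 tissues, and Bid 1448560_at from 5 to 48. With no filter on dim probe sets, Bak1 1425716_s_at passed between domesticus and musculus in brain at -1.24 (adjusted p = 0.0292), where domesticus read 6 and 18 and musculus 85 and 56. Bcl2 1440770_at passed there at 1.40 (adjusted p = 0.0467), where domesticus read 112 and 231 and musculus 45 and 40, while the 4 other Bcl2 probe sets, all fitted in brain, gave 0.48 for 1437122_at, 0.42 for 1422938_at, 0.03 for 1457687_at and -0.25 for 1443837_x_at, with none passing.

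Other genes of the pathway were read from 5 lists with 63 genes, of which 54 had a probe set and 42, 48 and 49 were fitted in brain, liver and testis. Parental differences passed in both directions. Between domesticus and musculus, 3 passed in brain (1 higher, 2 lower), 5 in liver (4 higher, 1 lower) and 7 in testis (1 higher, 6 lower), where 5.75%, 6.17% and 12.8% of all probe sets passed. Between castaneus and musculus, 2 passed in brain (1 higher, 1 lower), 2 in liver, both higher, and 9 in testis (3 higher, 6 lower), where 6.07%, 6.55% and 13.5% of all passed. Casp9, the initiator caspase that the apoptosome activates, was lower in domesticus than in musculus in all 3 tissues, by -1.29 ± 0.205 in brain (adjusted p = 0.00285), -1.10 ± 0.299 in liver (adjusted p = 0.0471) and -1.06 ± 0.277 in testis (adjusted p = 0.0218). Endog, a mitochondrial nuclease, was higher in castaneus than in musculus in all 3, by 1.13 in brain (adjusted p = 0.029), 2.39 in liver (adjusted p = 4.96e-05) and 1.45 in testis (adjusted p = 0.0107), and higher in domesticus liver by 1.05 (adjusted p = 0.0174). Casp8, the initiator caspase of the death receptors, was higher in domesticus liver by 1.07 (adjusted p = 0.00859).

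Among death receptors and their adaptors, which act upstream of Bid, the testis calls were all in the lower direction. In domesticus 4 of 7 fitted genes were lower than in musculus and 0 higher, where 5.86% of all probe sets were lower, with a median of -0.57 against 0 over all probe sets. In castaneus 3 of 7 were lower and 0 higher, where 6% of all were lower, with a median of -0.37 against 0.04. Fadd, the adaptor that recruits caspase 8, averaged 1371 in musculus, 339.5 in domesticus (-1.93 ± 0.16, adjusted p = 2.92e-06) and 424.5 in castaneus (-1.63 ± 0.16, adjusted p = 1.47e-05). In the same order, Tradd fell by 1.39 (adjusted p = 0.00252) and by 1.12 (adjusted p = 0.0102). Tnfrsf10b, a death receptor gene, was lower in castaneus by -1.29 (adjusted p = 0.00342). Cflar, whose product restrains caspase 8, was lower in domesticus by -0.72 in testis (adjusted p = 0.0228) and by -0.76 in brain (adjusted p = 0.0244). In liver, in contrast, Tradd was higher in domesticus by 0.85 (adjusted p = 0.0222) and in castaneus by 1.01 (adjusted p = 0.00796), and the death receptor gene Fas was higher in domesticus by 1.35 (adjusted p = 0.00404). Both comparisons share the musculus males, so they are not independent of each other.

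Among other BCL2 relatives, the BH3-only gene Hrk was higher in brain of domesticus than of musculus by 1.13 ± 0.236 (adjusted p = 0.0142), and the effector-like Bok was lower in brain of castaneus by -1.06 ± 0.183 (adjusted p = 0.00458). In testis of castaneus, Naip2, of the inhibitor of apoptosis family, was lower by -2.15 (adjusted p = 0.0036), and the caspase inhibitor Xiap was higher in testis of both domesticus, by 0.78 (adjusted p = 0.0282), and castaneus, by 1.08 (adjusted p = 0.00407). Of p53, the transcription factor that induces Pmaip1 and Bbc3, and its targets, Zmat3 was lower in domesticus by -1.43 (adjusted p = 0.000836) and Sesn1 higher in castaneus by 1.12 (adjusted p = 0.0106), both in testis. In the 10 F1 comparisons tested, 0 of the 42 to 49 pathway genes fitted passed in limma, where 0.0111% to 0.414% of all probe sets did. Between 1 and 9 had an unadjusted p under 0.05, against 3.51% to 9.62% of all probe sets. The highest count, 9 of 49, was between the reciprocal domesticus-cross F1 in testis, where 4.88% of all probe sets were under 0.05. It was singled out after the counts were seen.

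Between the castaneus-cross F1 in testis, described with no test, 6 pathway genes were more than 2-fold higher in the F1 with a musculus mother and 1 reached 2-fold lower, of 49 fitted, where 4.14% of all probe sets were past 2-fold higher and 3.66% lower. The p53 targets Perp, Cdkn1a, Tigar and Sesn1 differed by 1.47, 1.20, 1.11 and 1.05, and the median of the 15 p53-list genes fitted was 0.70 against 0.24 over all probe sets. A median above 0.24 was not particular to that list. It was 0.54 for caspases and the apoptosome, 0.43 for inhibitors of apoptosis, 0.3 for other BCL2 relatives and 0.29 for death receptors. Among cell markers it was 1.03 for Leydig and 0.64 for Sertoli cells, but 0.1 for spermatocytes and -0.93 for round spermatids. Mdm2 and Mdm4, also tied to p53, differed by -0.80 and -0.83. The part of p53 in these values was not tested. Bcl2l2, an anti-apoptotic gene required for spermatogenesis, differed by 1.06, and the BH3-only gene Bcl2l11, which encodes BIM, by 1.05. Bcl2l14 was lower by -1.0, averaging 3876 against 7802. Several marker sums of testis cell types given above differed in this contrast, and their part in these values was not tested.

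The testis probe sets whose signals most resembled those of Pmaip1 over the 14 arrays, among 21820 compared, belonged to Nxf3 (Pearson r = 0.956), Pus7 (0.941), Npepl1 (0.933), Trip12 (0.929) and Cyld (0.928). Nxf3 averaged 4488 in the musculus x castaneus F1 and 1221 in its reciprocal. The arrays share this one contrast: without the musculus x castaneus F1, over 12 arrays, the coefficients were 0.839, 0.837, 0.76, 0.782 and 0.724. They are given as a description.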

How the data were processed

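Signals are intensity values on a linear scale, 1 per probe set and array, as deposited by the authors. Per the submitters' processing notes they come from MAS5, whose version is not given in the sources used here. Trimmed means (2% off either end) were 496.87 to 498.59 per array, medians 95 to 183, and 1063 values were listed as 0. No file holds read depth, and 0 other value columns were present. Of 45037 probe sets, 34945 had 1 symbol in the platform annotation, 932 several (none of them naming a member) and 9160 none.

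Signals were taken as log2(signal + 31), a scale on which changes of dim transcripts come out too small. Probe sets below the 40th percentile of mean log2 signal in a tissue were left out, and the remaining 27022 were fitted with limma 3.58.1 (R 4.3.3, lmFit and eBayes with trend) over 14 arrays by genotype, with 7 residual degrees of freedom. P-values are two-sided and adjusted by Benjamini-Hochberg over all probe sets of a comparison, and calls have an adjusted p under 0.05. Tissues were compared over the 20178 probe sets fitted in all 3, with the male as a random block (correlation 0.293). Titles name the same male in each tissue, and all 21 correlations of deviations from group means between tissues of a male lay above 0.1 (0.102 to 0.312). The script was tested on simulated data.

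Members and gene lists were chosen with earlier results of these data known. Named were members with a call, the castaneus-cross testis values, all probe sets of a called gene, the called pathway genes, at most the 6 largest per comparison (castaneus Xiap in testis was added after its value was seen), and the 5 genes most like Pmaip1; other members named with values are marked as such or serve to show levels. A pathway gene was read from its brightest probe set without the suffix _x_at. Alternatives were other amounts added before logs (16, 100), no filter, quantile normalization, no trend, a replicate block, no animal block, a linear midparent and leaving out single males.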

Additional observations from a re-analysis of the deposited data

Results flagged for a closer look

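The domesticus minus musculus difference of Bid (1417045_at) differed between tissues in a test of the difference itself (limma F test over the 3 tissues with the male as a block, adjusted p = 0.00424), with 0.57 in liver, -0.30 in brain and -0.51 in testis on the log2 scale. The same difference for Bmf (1454880_s_at) also differed between tissues (adjusted p = 0.0185), with -1.31 in liver, -0.03 in brain and 0.20 in testis. The other probe sets of Bid and Bmf, each too dim in at least 1 tissue for this fit, did not pass with no filter. The 2 liver values of Bmf in domesticus, 584 and 120, lie far apart. Both calls depend on single males: that of Bid was lost without domesticus male 2 or musculus male 2 (adjusted p = 0.13 and 0.0613), and that of Bmf without domesticus male 2, musculus male 1 or musculus male 2 (0.369, 0.144 and 0.0971).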

How the results depend on the processing

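No call on a single member reversed its direction under any setting tried. With no filter on dim probe sets, member calls were 3 instead of 1 for domesticus against musculus in brain, 0 instead of 1 for castaneus against musculus in liver, 23 and 23 instead of 11 and 11 for testis against brain and liver, 24 instead of 13 for liver against brain, and 5 and 3 instead of 2 and 0 for tissue dependence of the domesticus and castaneus differences. Without the filter all 28 member probe sets enter each comparison, against 19 or 20 within a tissue and 13 across tissues. These counts therefore have different bases and cannot be compared as they stand. The share of all probe sets that passed with no filter is not given here. The added tissue dependence includes Pmaip1 and 2 Bik probe sets, which the filter keeps out of that fit. Pmaip1 is too dim in liver and Bik in brain, where a difference comes out too small. Quantile normalization gave 1 call instead of 0 for domesticus against musculus in liver (Bik 1420362_a_at) and for the domesticus-cross F1 against the midparent in testis (Bcl2l1 1420887_a_at). Without the male as a block, 1 of 2 tissue dependence calls remained (Bid). With 100 added before logs, probe sets past 2-fold in castaneus-cross testis, settings chosen after seeing the data, were 1 instead of 2 in both the reciprocal and the midparent comparison. Leaving out single males gave 0 to 2 calls for domesticus and 0 to 1 for castaneus against musculus in liver, 2 to 4 for castaneus against musculus in testis, and, in castaneus-cross testis, 1 to 3 probe sets past 2-fold between reciprocal F1 and 1 to 2 against the midparent. Leaving out all 3 arrays of single parental males, added after seeing the data, gave 0 to 2 calls for tissue dependence of the domesticus difference and 0 for that of castaneus. The calls for domesticus against musculus in testis also changed without domesticus male 1, where Bik 1449836_x_at stood at 1.14. The cause of the shifts between settings was not tested beyond what each setting changes. Replicate numbers do not pair males of different genotypes: correlations of same-numbered deviations from the group means ranged from -0.466 to 0.561 in brain, -0.281 to 0.297 in liver and -0.39 to 0.306 in testis, and above 0.1 lay 13, 10 and 10 of 21. The fit with the replicate number as a block changed none of the 18 counts and no single call, for example 1 for domesticus against musculus in brain (Pmaip1, -2.01, adjusted p = 0.000398).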
